A study of Rattus norvegicus with 44 samples.

Results

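Mitosis and spindle genes encode the machinery that takes a cell from the end of DNA replication through chromosome segregation and cytokinesis. The set named here held 57 genes, and a gene counted as measured if a probe set was annotated to it alone. Where several such probe sets existed, the one whose log2 mean was highest was used. By this rule 49 of the 57 genes were measured, among 12749 genes in all, and Cdc25c, Nek2, Tpx2, Anln, Cenpa, Cenpf, Spc24 and Ncapg were not analysed here.

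Entry into mitosis is driven by cyclin-dependent kinase 1 (CDK1) bound to cyclin A or B. The spindle checkpoint holds anaphase back until every kinetochore is attached, after which the anaphase-promoting complex (APC/C), a ubiquitin ligase, marks securin and cyclin B for destruction. Most of these genes are transcribed late in the cell cycle and are little expressed in cells that have left it, so in neural tissue their mRNAs mark dividing precursors rather than neurons. Their products build the kinetochore, the condensin rings that compact chromosomes, and the kinesin motors that work on spindle microtubules.

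The arrays came from 5 clonal rat neural precursor lines, each a single clone, grown on poly-lysine and laminin in DMEM/F12 with FGF2 (day 0) and then 3 or 7 days after the medium was replaced by DMEM/F12/B27 without FGF2 and with 0.5% fetal bovine serum. The labels call Ge6 GABAergic neuronal, L2.2 interneuronal and Ge2 nonneuronal precursors, and both Ctx8 and L2.3 multipotential ones. With 3 sister cultures per clone and day, and only 2 arrays for L2.2 before withdrawal, there were 44 arrays in 15 groups. Because the cultures were sisters of one clone, p-values measured the spread between cultures only. Values are RMA intensities on a linear scale, and differences are on the log2 scale. A gene was called where the limma adjusted p over all 12749 genes was under 0.05. In bulk RNA, fewer dividing cells and less of these mRNAs per dividing cell cannot be told apart.

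Sister arrays correlated over all probe sets with r between 0.992 and 0.998. A pair of arrays stood apart from their sisters in these genes. Replicate 1 of Ge2 at day 7 was above both sisters in 41 of the 49 genes (31.0% of all genes), by a median of 0.62 log2. Replicate 1 of L2.3 at day 7 was so in 48 of 49 (35.8% of all genes), by a median of 0.26. The wide spread in Ge2 at day 7 entered the shared error of every comparison, so counts are also given without these arrays where they differ by over 1.5 times. All 8 measured neural precursor markers were above a dim level of 16.3, the 40th percentile of all intensities, in every Ge2, Ctx8 and L2.3 group, 7 or 8 in L2.2, and 6 in Ge6. Of 9 microglial markers at most 2 and of 8 endothelial markers at most 3 were above that level in any group. Of 10 neuronal markers all 10 were above the dim level in Ge6 and in L2.2 at day 7, and 3 were in Ge2 at day 7. Of 8 astrocyte markers 6 were above it in Ge2 at day 7, against 4 at day 0, and 7 in each other clone at day 7, against 3 to 6 at day 0. Their summed intensity at day 3, against day 0, was 9771 against 2096 in Ge2, 7684 against 932 in Ctx8, 8081 against 870.3 in L2.3, 2223 against 846 in L2.2 and 1409 against 1049 in Ge6. Within the list Gja1 ran the other way in Ge2, 15.9 at day 3 against 896 at day 0. The summed oligodendrocyte list read 10972 at day 3 against 5345 at day 0 in Ctx8 and 6864 against 4553 in L2.3. In Ge2 it read 133 against 203. Mbp was the highest of the list at day 3 in Ctx8 (5447 against 26.4) and in L2.3 (4578 against 40.6). Cldn11, Mag and Mog were also higher at day 3 in both, whereas Olig1, Olig2 and Cspg4 were lower in both. Pdgfra was higher in Ctx8 and lower in L2.3. In Ge6, Olig1 read 121 at day 3 against 2223 at day 0, and Mbp 42.5 against 23.6. Of 9 mesenchyme markers 5 were above the dim level in Ge2 at day 7 and 4 at day 0, and of these Postn and Tagln carried nearly all of a sum of 4027 at day 7, against 653 at day 0, while Col1a2, Col3a1, Lum and Dcn were under the dim level. The part of these cell type markers in the results below was not tested.

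At day 0 the genes were high in all 5 clones, and after FGF2 withdrawal they fell to very different depths. The geometric mean of the 49 genes on an array, averaged over sister arrays, was 450.5, 433 and 193 in Ge6 at days 0, 3 and 7. It was 526, 325 and 252 in L2.2, and 473 (SD 15.5), 24.2 (SD 1.37) and 26.7 (SD 8.17) in Ge2. In Ctx8 it was 557, 146 and 127, and in L2.3 it was 553, 293 and 310.3. From the median member, day 3 left 99.5% of the day 0 signal in Ge6, 60.3% in L2.2, 51.9% in L2.3, 26.7% in Ctx8 and 4.37% in Ge2. The median member in Ge2 at day 3 read 22.0, where the medians of all probe sets on day 3 arrays were 25.2 to 28.6.

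**Figure D1:**
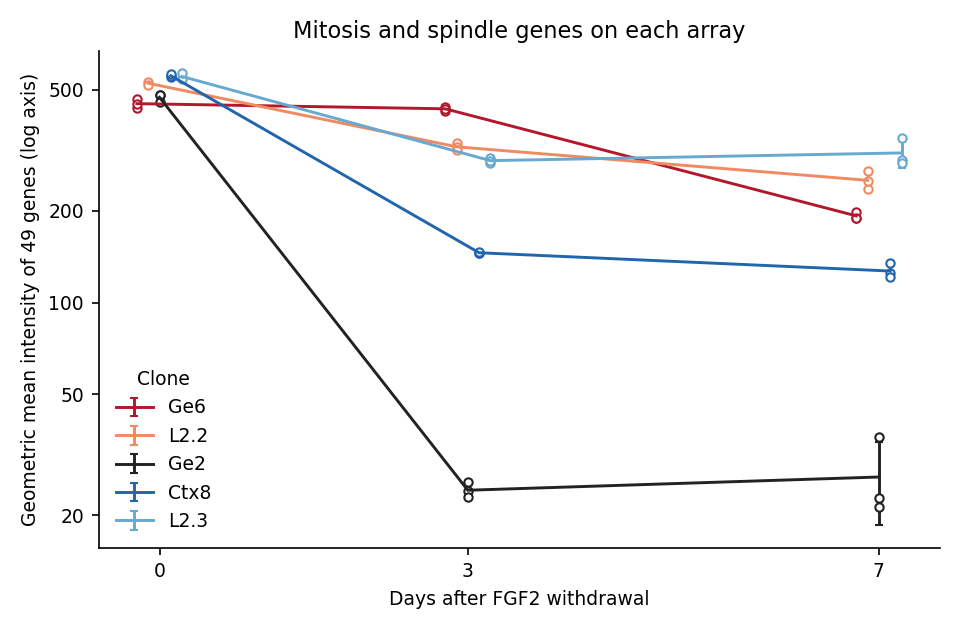
Geometric mean intensity of the 49 measured mitosis and spindle genes on each array (open circles, log axis) by day after FGF2 withdrawal. Lines join group means by clone and bars show the SD over 3 arrays (2 for L2.2 at day 0). Ge2 ended at 24.2 by day 3, Ctx8 at 146, and Ge6 was still at 433 on that day.

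All 49 genes fell in Ge2 at day 3, where 32.4% of all genes fell, with a median log2 difference of -4.52 from day 0. All 49 fell in Ctx8 at day 3 (29.7% of all genes), with a median of -1.90. In L2.3, 47 fell (26.2% of all genes), with a median of -0.95, and Ube2c and Kif20a did not pass. In L2.2, 43 fell (27.7% of all genes), with a median of -0.73. In these 4 clones every gene read lower on every day 3 array than on every day 0 array, which held for between 31.5% and 37.3% of all genes. Ge6 differed: 11 genes fell and 5 rose at day 3 (28.6% and 20.4% of all genes), 33 did not pass, and the median was -0.01.

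By day 7 all 49 genes had fallen in Ge6 as well (35.0% of all genes), with a median log2 difference of -1.15 from day 0. All 49 were below day 0 in Ge2 (33.3% of all genes) and in Ctx8 (30.9%), with medians of -4.41 and -2.14. In L2.2, 48 had fallen (30.3% of all genes), with a median of -1.06, and Cdk1 at -0.56 (SE 0.27) did not pass. In L2.3, 45 had fallen (26.9% of all genes), with a median of -0.85, and Cdk1, Cks2, Ube2c and Kif20a did not pass. Without both arrays that stood apart, all 49 fell in L2.3 at days 3 and 7 and in L2.2 at day 7. The share of all genes that fell without these arrays is not given. Giving every array the same median shifted the median of all genes against day 0 by between -0.04 and -0.16, in the same direction as the falls.

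**Figure D2:**
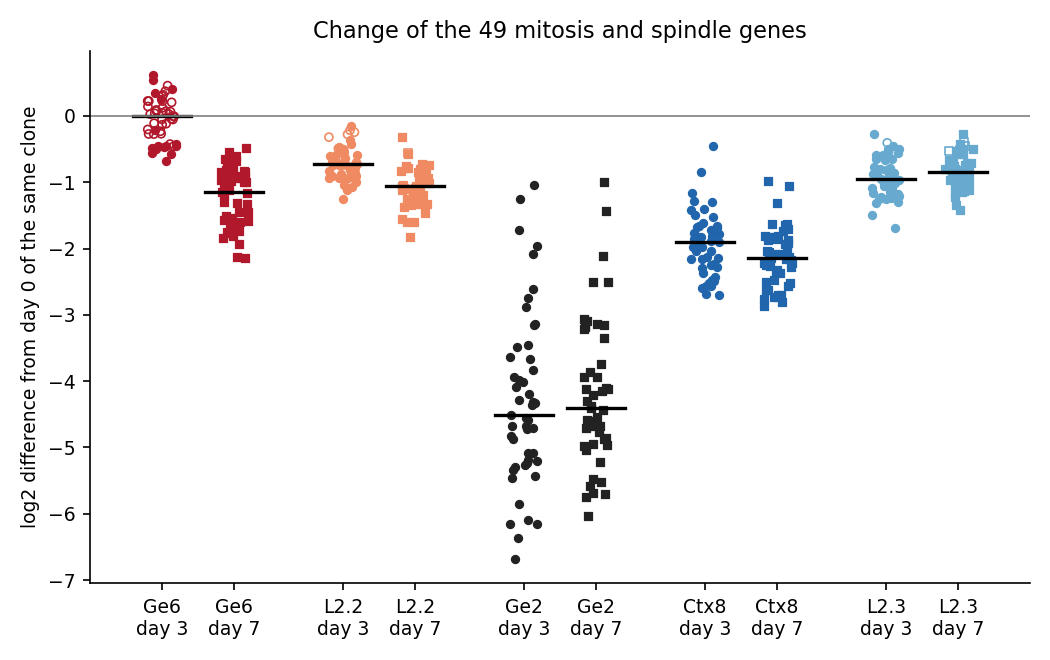
Log2 difference of each of the 49 genes from day 0 of the same clone, at day 3 (circles) and day 7 (squares). Filled symbols passed the limma test and open ones did not, and black bars are medians, from -0.01 in Ge6 at day 3 to -4.52 in Ge2 at day 3.

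The engine of mitotic entry comprised Cdk1, the cyclins Ccna2, Ccnb1 and Ccnb2, the CDK-activating phosphatase Cdc25b and the CDK-binding subunit Cks2. Ccnb1 in Ge2 read 2175, 2058 and 2253 at day 0, 30.8, 25.5 and 22.8 at day 3, and 91.3, 23.7 and 29.6 at day 7. In Ctx8 it read 2589, 2582 and 2453 at day 0, 423, 374 and 381 at day 3, and 399.9, 362 and 367 at day 7, and in L2.3 2248, 2192 and 2341 at day 0, 1235, 1227 and 1281 at day 3, and 1469, 1212 and 1228 at day 7. In Ge2 and Ctx8 the day 3 arrays lay far below the day 0 arrays without overlap, and replicate 1 of Ge2 at day 7 stood above its sisters. The day 3 log2 difference of Ccnb1 was -6.37 (SE 0.22, limma adjusted p = 7.39e-24) in Ge2 and -2.70 (SE 0.22, limma adjusted p = 4.58e-13) in Ctx8. In L2.3 it was -0.86 (SE 0.22, limma adjusted p = 0.00141).

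Ccnb1 in L2.2 read 2076 and 2197 at day 0, 1439.6, 1293 and 1239.8 at day 3, and 1065, 971 and 1045 at day 7. Its Ge6 values were 2019, 2027 and 1956 at day 0, 1433, 1499 and 1442 at day 3, and 691, 599 and 615 at day 7. In Ge6 every day 3 array was below every day 0 array, yet the log2 difference of -0.46 (SE 0.22, limma adjusted p = 0.0888) did not pass in the fit over all clones. It passed with only the Ge6 arrays in the fit and with no Ge2 array in it. A second Ccnb1 probe set, whose values followed the first with r = 0.99, differed by 0.03 in Ge6 at day 3, so the probe sets of this gene disagreed there.

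Ccna2, the cyclin that acts from S phase into early mitosis, fell most of all members in Ge6, where it read 925, 906 and 954 at day 0, 608, 589 and 549 at day 3, and 207, 218 and 206 at day 7. Its Ge6 log2 difference was -0.67 (SE 0.19, limma adjusted p = 0.00246) at day 3 and -2.14 (SE 0.19, limma adjusted p = 1.46e-12) at day 7. In Ge2 it read 13.6, 13.3 and 10.7 at day 3, against 829, 928 and 922 at day 0, under the dim level on every day 3 array, so it was at least 54.7-fold lower there (limma adjusted p = 1.38e-25). Cks2 read 68.6, 51.0 and 49.6 at day 3, against 2000.2, 2022 and 2105 at day 0 in Ge2, a log2 difference of -5.19 (SE 0.24). In Ge6 its values were 1793, 1808 and 1819.7 at day 3, against 1855, 1759 and 2023 at day 0, and the days overlapped (-0.05, SE 0.24, limma adjusted p = 0.886, not past the test). The fall of Cdc25b was the smallest of the 49 in Ctx8 at day 3, at -0.46 (SE 0.13), and it fell again between days 3 and 7 in both Ctx8 (-0.61, SE 0.13) and Ge2 (-0.42, SE 0.13), where the call was lost without replicate 1 or 3 of either day (-0.26 to -0.41).

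A group of 4 genes acts at the APC/C and at anaphase: the E2 enzyme Ube2c, the activator Cdc20, securin (Pttg1) and separase (Espl1), the protease that opens cohesin. Ube2c had the widest range of all members, 6.78 log2 between its lowest and highest group, and in Ge2 it read 2038, 2074 and 2142 at day 0, 28.3, 15.5 and 19.1 at day 3, and 78.0, 15.7 and 26.7 at day 7. Its Ge2 log2 difference at day 3 was -6.68 (SE 0.26, limma adjusted p = 1.21e-22), the largest of the 49. In Ge6 it read 1870.3, 2026 and 2012 at day 0, 1865, 1935 and 1930.4 at day 3, and 983, 976 and 996 at day 7, overlapping between days 0 and 3 and lower on every array at day 7. In L2.3 it read 1411, 1393 and 1461 at day 3, against 2037, 2050.0 and 2139 at day 0, lower on every array but not past the test (-0.55, SE 0.26, limma adjusted p = 0.0804).

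Pttg1 in Ge6 read 1172, 1219 and 1236 at day 0, 788, 842 and 803 at day 3, and 353, 347 and 373 at day 7, and it fell at day 3 by a log2 difference of -0.58 (SE 0.11, limma adjusted p = 4.06e-05). In L2.3 it read 1659, 1737 and 1726 at day 0, 738, 754 and 705 at day 3, and 1033, 903 and 842 at day 7. It was one of the 2 members higher in L2.3 at day 7 than at day 3, by 0.33 (SE 0.11, limma adjusted p = 0.0382), and the highest of the day 7 arrays was replicate 1, which stood apart. Without that array the difference was 0.25 (limma adjusted p = 0.194), and the call was also lost without 4 other L2.3 arrays in turn. Cdc20 and Espl1 fell in every clone except Ge6 at day 3, where they differed by -0.20 (SE 0.14) and -0.27 (SE 0.12) without passing. Over the 4 genes the median day 3 log2 difference was -4.71 in Ge2, -2.49 in Ctx8, -1.20 in L2.3, -0.75 in L2.2 and -0.24 in Ge6.

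The spindle checkpoint was represented by the kinases Bub1 and Ttk, by Bub1b (BubR1), and by Bub3 and Mad2l1. Bub3, which in human cells also binds splicing factors, had the smallest range of all members, 1.10 log2. In Ge2 it read 2097, 1935 and 2141 at day 0, 946, 1044 and 993 at day 3, and 996, 1071 and 1011 at day 7. In Ctx8 it read 2022, 2263 and 2121 at day 0, 1197, 1202 and 1172 at day 3, and 1058, 1085 and 1086 at day 7, and in Ge6 2115, 2158 and 2061 at day 0, 1843, 1842 and 1768 at day 3, and 1135, 1123 and 1108 at day 7. In all 3 clones the day 7 arrays lay below the day 0 arrays, and in Ge2 the arrays of days 3 and 7 overlapped near 1000. Its day 3 log2 difference in Ge2 was -1.05 (SE 0.05, limma adjusted p = 9.34e-20). A second Bub3 probe set gave -1.50 in Ge2 and -0.70 in Ge6 at day 3, against -1.05 and -0.22 for the chosen one.

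Bub1b read 11.3, 12.3 and 12.3 at day 3, against 416, 469 and 440.0 at day 0 in Ge2, under the dim level on every day 3 array and at least 27.0-fold lower (limma adjusted p = 4.06e-28). In Ge6 it read 438, 454 and 474 at day 0, 330.2, 316 and 319 at day 3, and 102, 103 and 108 at day 7, and the groups of the 3 days did not overlap. Its Ge6 log2 difference was -0.50 (SE 0.13, limma adjusted p = 0.00117) at day 3 and -2.12 (SE 0.13, limma adjusted p = 7.33e-17) at day 7. Mad2l1 showed the widest gap between the multipotential clones at day 3, 98.3, 117 and 105 in Ctx8 against 425, 331 and 354 in L2.3, a log2 difference of -1.79 (SE 0.14, limma adjusted p = 2.68e-13). Bub1 fell at day 3 in every clone except Ge6, where it differed by 0.07 (SE 0.14) and did not pass.

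**Figure D3:**
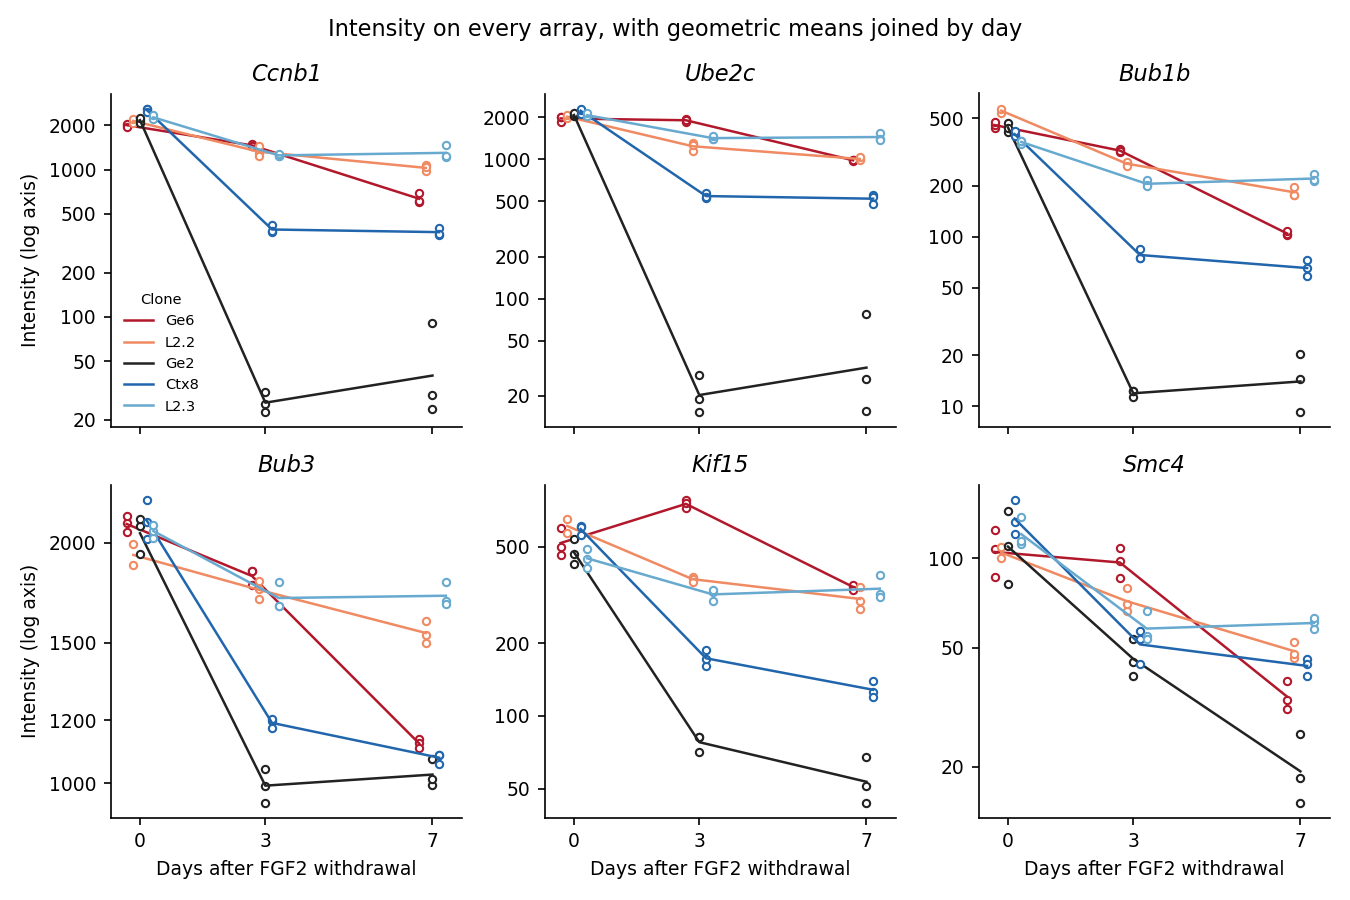
Intensity on every array (open circles, log axes that differ between panels) for 6 genes by day after FGF2 withdrawal, with geometric means joined by clone. Ccnb1, Ube2c and Bub1b dropped furthest in Ge2. Bub3 was near 1000 in Ge2 at days 3 and 7, against about 2000 at day 0, Kif15 was higher in Ge6 at day 3 than at day 0, and Smc4 was lower in Ge2 at day 7 than at day 3.

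Of the mitotic and centrosome kinases, Aurka acts at spindle poles, Plk1 at several steps from mitotic entry to cytokinesis, and Plk4 in centriole duplication. Plk1 in Ge6 read 758, 756 and 753 at day 0, 521, 576 and 554 at day 3, and 237, 242 and 197 at day 7. In L2.2 it read 814 and 856 at day 0, 436, 448 and 422 at day 3, and 322, 323 and 326 at day 7, and in Ge2 758, 741 and 836 at day 0, 28.1, 26.4 and 25.3 at day 3, and 38.9, 17.6 and 27.5 at day 7. The 3 days did not overlap in Ge6 or L2.2, and in Ge2 days 3 and 7 overlapped. Plk1 and Aurka fell in Ge6 at day 3, by log2 differences of -0.46 (SE 0.14) and -0.47 (SE 0.12), whereas Plk4 at 0.06 (SE 0.13) did not pass. All 3 kinases also fell between days 3 and 7 in L2.2, Aurka with a log2 difference of -0.48 (SE 0.12). Between days 3 and 7 in Ge2, Plk4 fell (-0.45, SE 0.13), but did not pass without replicate 1 of day 3 (-0.28) or replicate 2 of day 7 (-0.41).

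The chromosomal passenger complex, which corrects faulty attachments, consists of the kinase Aurkb with Incenp, Birc5 (survivin) and Cdca8 (borealin). All 4 genes fell at day 3 in Ge2, Ctx8, L2.2 and L2.3, and 3 of the 4 fell in Ge6. Aurkb in Ge6 read 415, 461 and 474 at day 0, 314, 332 and 342 at day 3, and 128, 130.2 and 119 at day 7, without overlap between days. In Ctx8 it read 79.9, 61.3 and 73.2 at day 3, against 461, 453 and 450.3 at day 0, a log2 difference of -2.68 (SE 0.11, limma adjusted p = 6.98e-21). Cdca8 had the largest fall in L2.2 at day 7, where it read 346 and 356 at day 0, 164, 161 and 177 at day 3, and 79.1, 103 and 118 at day 7. Its L2.2 log2 difference was -1.83 (SE 0.13, limma adjusted p = 1.32e-14) at day 7, and it was the member that fell furthest in L2.2 between days 3 and 7 (-0.76, SE 0.11, limma adjusted p = 4.02e-06).

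The spindle assembly genes Nusap1, Hmmr and Ckap2 encode microtubule-associated proteins. Nusap1 in Ge2 read 727, 723 and 724 at day 0, 17.6, 24.4 and 13.5 at day 3, and 52.3, 24.2 and 21.3 at day 7, a log2 difference at day 3 of -5.34 (SE 0.17, limma adjusted p = 1.04e-24). In Ge6 it read 1119, 1156 and 1107 at day 3, against 900.3, 794 and 922 at day 0, higher on every array but not past the test (0.37, SE 0.17, limma adjusted p = 0.0746), and without replicate 1 of Ge2 at day 7 in the fit it passed. Hmmr fell, by a log2 difference of -1.11 (SE 0.15), in L2.2 at day 3 and differed by 0.22 (SE 0.13) in Ge6, where it did not pass. Ckap2 fell furthest of all members in L2.3, where it read 628, 594 and 649 at day 0, 186, 186 and 209 at day 3, and 325, 249.8 and 262 at day 7. Its L2.3 log2 difference was -1.69 (SE 0.16, limma adjusted p = 3.09e-11) at day 3, and from day 3 to day 7 it rose by 0.52 (SE 0.16, limma adjusted p = 0.0207), with no overlap between those days. Without replicate 1 of day 7 that difference was 0.40 (limma adjusted p = 0.129), and it did not pass either without replicate 1 (0.49) or 2 (0.49) of day 3.

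At the central spindle, Prc1 bundles antiparallel microtubules, Racgap1 and Kif23 form centralspindlin, Ect2 activates RhoA, and Kif20a carries the passenger complex. Kif20a read 963, 925 and 990.5 at day 0, 38.2, 24.0 and 17.8 at day 3, and 59.0, 17.3 and 28.8 at day 7 in Ge2. In L2.3 it read 790.1, 840.0 and 831 at day 3, against 1049.7, 1139 and 1072 at day 0, lower on every array without passing (-0.41, SE 0.22, limma adjusted p = 0.136). A second Kif20a probe set ran the other way, with r = -0.69 over the 44 arrays, and at day 3 it was higher than at day 0 in all 5 clones, by between 0.45 in L2.3 and 1.93 in Ge2. Racgap1 rose in Ge6, where it read 882, 946 and 930.5 at day 3, against 733, 812 and 773 at day 0, by 0.25 (SE 0.10, limma adjusted p = 0.0327), but its second probe set gave -0.10, and it did not pass without any 1 of 4 Ge6 arrays (0.21 to 0.25).

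The remaining kinesins were Kif2c, a microtubule depolymerase, the chromosome-bound motors Kif4a and Kif22, the spindle motors Kif11 and Kif15, the plus-end regulator Kif18a, and Kif20b. This group held the largest rises in Ge6. Kif20b read 263, 137 and 255 at day 0, 299.8, 355 and 312 at day 3, and 141, 166 and 143 at day 7, and Kif15 read 599.9, 501 and 463 at day 0, 721, 782 and 755 at day 3, and 342, 349 and 332 at day 7. For both genes the day 3 arrays were above all day 0 and day 7 arrays, and replicate 2 of day 0 was the lowest of its group for Kif20b. Their Ge6 log2 differences at day 3 were 0.62 (SE 0.20, limma adjusted p = 0.00823) and 0.54 (SE 0.11, limma adjusted p = 0.000117). Without replicate 2 of Ge6 at day 0, Kif20b differed by 0.31 and did not pass (limma adjusted p = 0.194), while Kif15 passed with each array left out. Kif22 fell in Ge6, where it read 617, 663 and 627 at day 3, against 842, 897 and 874 at day 0, a log2 difference of -0.45 (SE 0.11, limma adjusted p = 0.000606).

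Kif18a read 7.57, 7.58 and 8.06 at day 3, against 26.6, 25.9 and 24.2 at day 0 in Ge2, under the dim level at day 3, so that it was at least 1.57-fold lower. Kif11 showed one of the smaller gaps between the multipotential clones at day 3: it read 211, 217 and 203 in Ctx8 against 238, 261 and 279 in L2.3, a log2 difference of -0.30 (SE 0.12, limma adjusted p = 0.0423), which did not pass without any 1 of 5 of these 6 arrays (-0.24 to -0.32). In L2.3 itself the day 3 log2 difference of Kif11 was -1.50 (SE 0.12), against -1.97 in Ctx8. A second Kif11 probe set, whose values followed the first with r = 0.99, gave -0.98 in L2.3 and -1.83 in Ctx8. How near the changes of these clones were for Kif11 thus depended on the probe set. Between days 3 and 7, Kif4a fell in L2.2, Ctx8 and L2.3, with log2 differences of -0.25 (SE 0.08), -0.29 (SE 0.08) and -0.27 (SE 0.08), and the L2.2 and L2.3 calls were each lost without any 1 of 3 arrays (-0.22 to -0.23 in L2.2 and -0.21 to -0.26 in L2.3).

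Among the centromere and kinetochore genes, Ndc80, Nuf2 and Spc25 belong to the microtubule-binding NDC80 complex, Cenpk and Cenpn to the inner kinetochore, and Cenpe is a kinetochore kinesin. Spc25 read 579.6, 604 and 609 at day 0, 97.3, 90.5 and 61.2 at day 3, and 68.9, 71.7 and 63.0 at day 7 in Ge2, a day 3 log2 difference of -2.88 (SE 0.11). Ge6 gave 719, 794 and 871 at day 0, 827, 822 and 807 at day 3, and 404, 447 and 471 at day 7, overlapping between days 0 and 3 and lower on every array at day 7. Cenpn had the largest fall of all members in L2.2 at day 3, where it read 292, 289.9 and 258 at day 3, against 677 and 658 at day 0, a log2 difference of -1.25 (SE 0.12, limma adjusted p = 6.47e-11). In Ge6, Cenpn fell while Ndc80 rose: Cenpn read 347, 358 and 344 at day 3, against 508, 509 and 524 at day 0 (-0.55, SE 0.11, limma adjusted p = 4.30e-05). Ndc80 read 242, 169 and 234 at day 3, against 175, 171 and 158 at day 0 (0.34, SE 0.14, limma adjusted p = 0.0479), and replicate 2 of day 3 lay within the day 0 range. This rise did not pass without any 1 of 23 of the 44 arrays (0.25 to 0.37).

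The chromosome structure genes were Smc2, Smc4, Ncapd2 and Ncaph of the condensin complex, Top2a, the topoisomerase that untangles sister chromatids, and Mki67, which coats mitotic chromosomes and is the antigen of the Ki-67 stain. Top2a in Ge2 read 1047, 1035 and 872 at day 0, 13.6, 18.0 and 11.9 at day 3, and 34.2, 14.2 and 14.0 at day 7, a day 3 log2 difference of -6.10 (SE 0.17, limma adjusted p = 3.02e-26). Ge6 gave 997, 1128 and 1009 at day 3, against 898, 775 and 839 at day 0, higher on every array without passing (0.32, SE 0.17, limma adjusted p = 0.138). A second Top2a probe set, whose values followed the first with r = 0.98, gave a smaller day 3 fall in Ge2, at -3.98, and 0.38 in Ge6. Smc4 fell late in Ge2, where it read 144, 110.2 and 82.1 at day 0, 53.7, 45.0 and 40.2 at day 3, and 25.8, 15.2 and 18.4 at day 7. Its log2 difference was -1.25 (SE 0.16, limma adjusted p = 2.21e-08) at day 3, and from day 3 to day 7 it fell again, with a log2 difference of -1.25 (SE 0.16, limma adjusted p = 5.42e-07), the largest fall of any member in Ge2 between those days. Its day 0 arrays spread widely, with replicate 3 the lowest. Smc2 rose in Ge6, where it read 145, 145 and 146 at day 3, against 126, 85.9 and 124 at day 0, by 0.40 (SE 0.16, limma adjusted p = 0.0374), with replicate 2 of day 0 the lowest. Without that array Smc2 differed by 0.22 and did not pass (limma adjusted p = 0.321), nor did it without any 1 day 3 array (0.40).

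**Figure D4:**
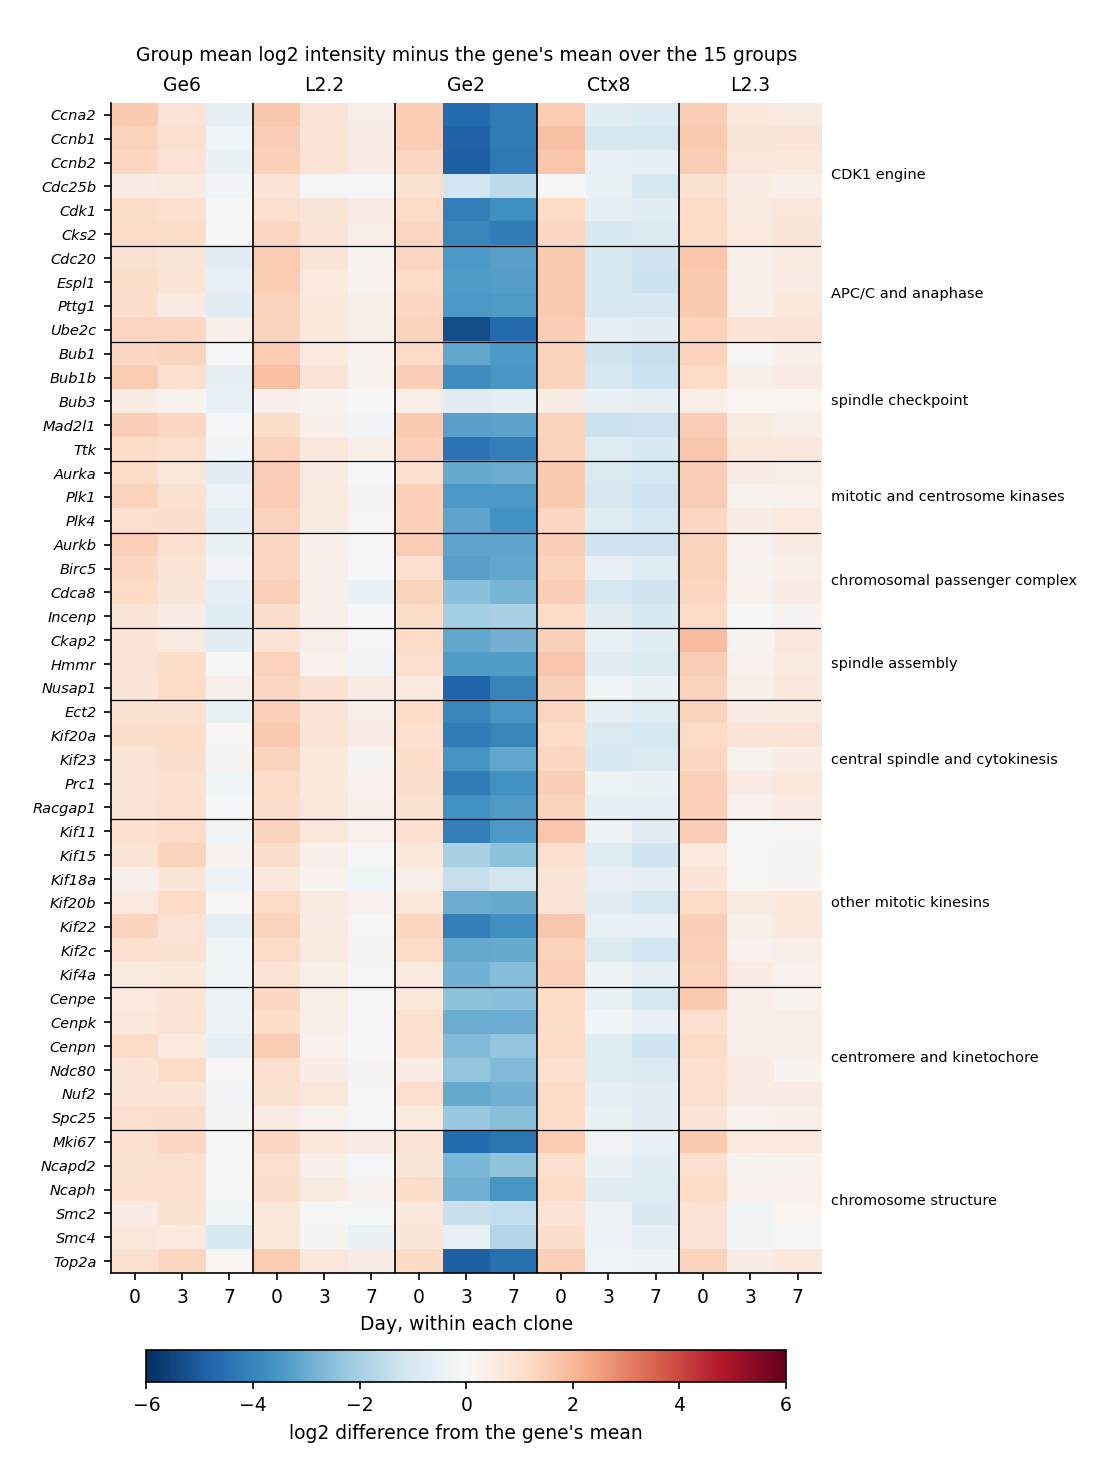
Group mean log2 intensity of each of the 49 genes minus that gene's mean over the 15 groups, with genes ordered by role and groups by clone and day. Red is above and blue below the gene's own mean. The darkest cells are in Ge2 at days 3 and 7, and Bub3, Kif18a and Smc2 show the least contrast.

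The question of whether clones differed in their response was put to the changes themselves. The day 3 change differed among the 5 clones for all 49 genes (68.2% of all genes) in a limma F test. The Ge2 change was below the mean change of the other 4 clones for all 49 genes at day 3 (27.7% of all genes) and at day 7 (27.5%), with medians of -3.43 and -2.94. The difference in day 3 change was largest for Ube2c (-5.85, SE 0.29) and smallest for Smc4 (-0.47, SE 0.18), which did not pass without any 1 of 4 Ge2 arrays (-0.27 to -0.47). The Ge6 change at day 3 was above the mean change of the other 4 clones for all 49 genes (24.1% of all genes), with a median of 1.94, and the mean it was set against includes Ge2. At day 7 it was above for 44 genes (22.6% of all genes) with a median of 0.84, and below for Bub3 (-0.27, SE 0.06, 29.3% of all genes), so 45 passed where 51.9% of all genes did. Smc4, Incenp, Ccna2 and Kif18a did not pass. The mean used at day 7 also includes Ge2. The median day 7 change was -1.15 in Ge6, -1.06 in L2.2, -0.85 in L2.3, -2.14 in Ctx8 and -4.41 in Ge2. By these medians Ge6 was above Ctx8 and Ge2 and below L2.2 and L2.3.

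Ctx8 and L2.3 carry the same label, and at day 0 the test passed for 3 of the 49 genes: Cdc25b was lower in Ctx8 (-0.86, SE 0.13, limma adjusted p = 3.97e-06), and Kif15 (0.40, SE 0.11) and Spc25 (0.33, SE 0.11) were higher. Kif15 did not pass without replicate 1 of Ctx8 (0.38) or replicate 2 of L2.3 (0.34), nor Spc25 without any 1 of the 6 arrays (0.29 to 0.36). Of all genes 6.34% were lower and 6.44% higher, 12.8% together. Cdc25b read 51.7, 56.1 and 63.4 in Ctx8 and 109, 98.7 and 102 in L2.3, without overlap. At day 3, 47 of the 49 were lower in Ctx8 (22.0% of all genes), with a median of -1.04, and Smc2 and Smc4 did not pass. At day 7 all 49 were lower in Ctx8 (24.7% of all genes), with a median of -1.34, or -1.21 without both arrays that stood apart.

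In a limma F test 27 of the 49 genes differed among the 5 clones at day 0, where 65.6% of all genes did. Ge6 was lower than the mean of the other 4 clones for 18 genes (18.6% of all genes), led by Cdc20 at -0.59 (SE 0.11) and Cenpe at -0.58 (SE 0.14), and higher for Spc25 at 0.24 (SE 0.08) (20.3%, and 39.0% of all genes in either direction). Ge2 was lower for 14 genes (20.8%), led by Nusap1 at -0.64 (SE 0.14) and Ndc80 at -0.50 (SE 0.12), and higher for Cdc25b at 0.37 (SE 0.10) (24.5%, and 45.3% in either direction). The rise of Spc25 was lost without replicate 2 (0.23) or 3 (0.17) of Ge6, and that of Cdc25b without replicate 2 of Ge2 (0.25). The median differences at day 0 were -0.22 for Ge6 and -0.12 for Ge2, against day 3 changes of up to -4.52.

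In Ge6 at day 3 the role groups had medians of both signs. The median log2 difference was -0.46 for the 3 mitotic and centrosome kinases, -0.44 for the 4 passenger genes and -0.27 for the 6 genes of the CDK1 engine. It was 0.22 for the 3 spindle assembly genes, 0.16 for the 6 chromosome structure genes and 0.14 for the 7 other kinesins. In all 16 of the 49 passed, where 49.0% of all genes did. With only the Ge6 arrays in the fit 25 passed, 16 lower and 9 higher, and with a 1.2-fold minimum 3 passed. With all arrays shifted to one median 15 passed, 13 lower and 2 higher, and of the 5 rises Kif15 and Kif20b remained. The share of all genes that passed under these other settings is not given, so these counts have no background beside them. From day 3 to day 7 in Ge6 all 49 fell (26.0% of all genes), with a median of -1.17.

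**Figure D5:**
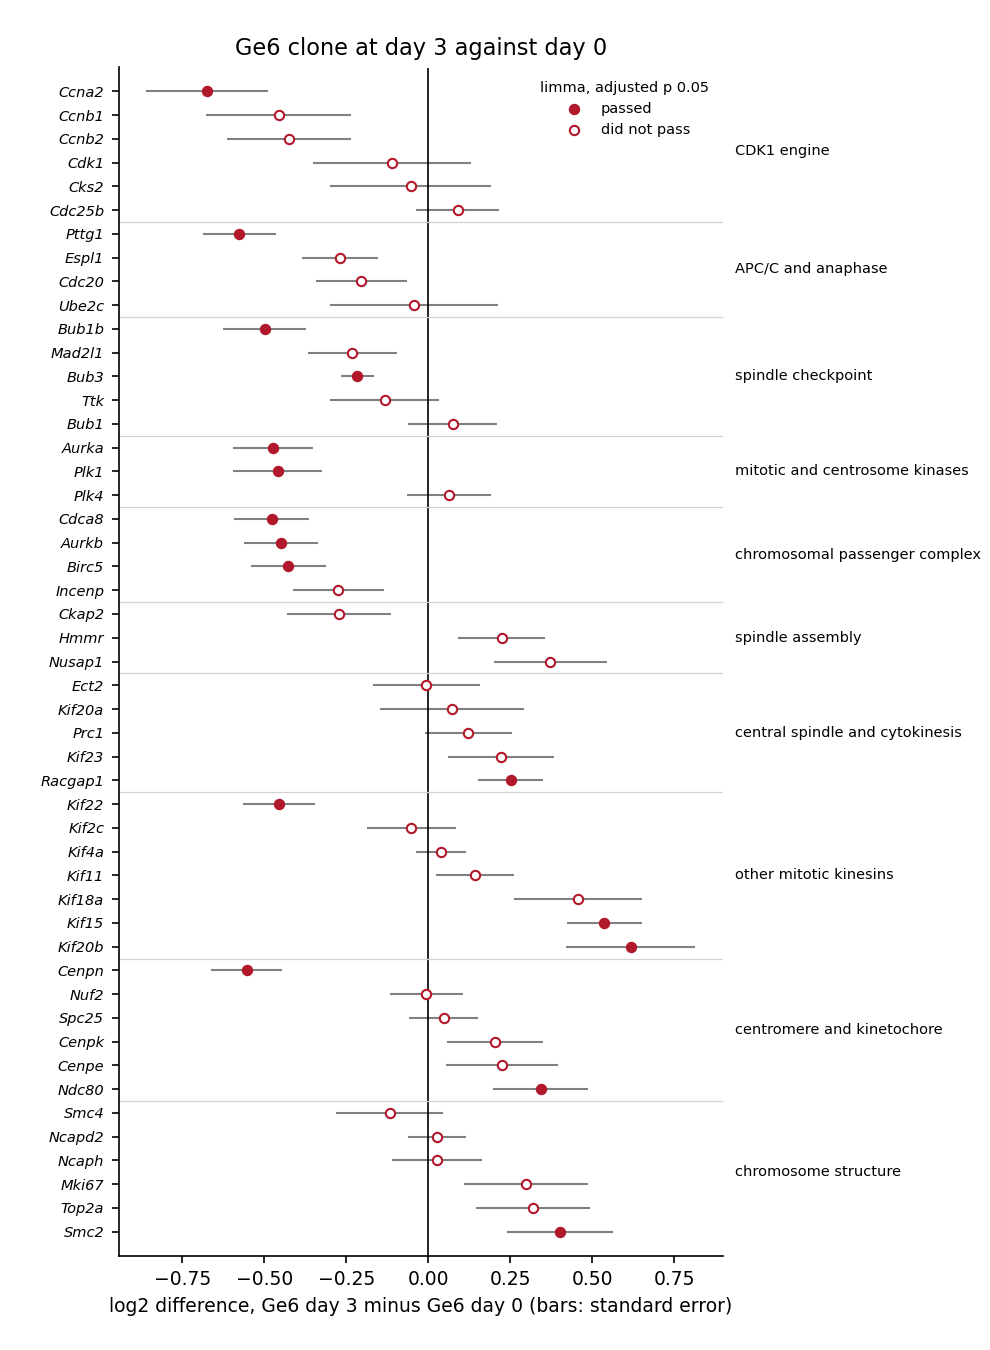
Log2 difference of each gene in Ge6 at day 3 from Ge6 at day 0, with its standard error, ordered by role. Filled points passed the limma test: 11 genes lower, from Ccna2 at -0.67 to Bub3 at -0.22, and 5 higher, up to Kif20b at 0.62.

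Between days 3 and 7 fewer members passed in the other clones. In L2.2, 21 genes fell further (8.89% of all genes), and 36 did without the arrays that stood apart. Without replicate 1 of L2.2 at day 7, which was below both sisters in 35 of the 49 genes, 11 fell, and with a 1.2-fold minimum 1 did. Replicate 3 of that group was above both sisters in 37 genes (37.4% of all genes). In Ctx8, 9 fell (10.5%), led by Cdc25b, Cenpe (-0.59, SE 0.17) and Smc2 (-0.54, SE 0.16), of which Cenpe did not pass without replicate 2 of either day (-0.51 and -0.52) and Smc2 without replicate 3 of either day (-0.50 and -0.37). In Ge2, 5 fell (7.68%) and 8 rose (9.02%, and 16.7% of all genes in either direction), the largest rises being Nusap1 (0.74, SE 0.17), Kif11 (0.65, SE 0.12) and Ccnb2 (0.64, SE 0.19). In this comparison 44 of the 49 genes overlapped between the days. On every array 2 read lower at day 7 and 3 higher, against 13.9% and 14.9% of all genes. With a 1.2-fold minimum 2 genes passed, Smc4 lower and Kif11 higher, and with only the Ge2 arrays in the fit Smc4 alone passed. On the 3 day 7 arrays Nusap1 read 52.3, 24.2 and 21.3, and the highest was replicate 1. Without replicate 1 Nusap1 differed by 0.34 and Kif11 by 0.45, and both passed, while Ccnb2 differed by 0.21 and did not (limma adjusted p = 0.344). Without the arrays that stood apart 11 members passed in Ge2, 7 of them lower and 4 higher. In L2.3, Kif4a fell (5.87%) and Pttg1 and Ckap2 rose (9.58%, and 15.4% in either direction). For the counts in this paragraph with arrays left out, with a 1.2-fold minimum or with only the Ge2 arrays, the share of all genes is not given.

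Across the 44 arrays the members moved closely together. The correlation of a gene with the mean of the other members was between 0.82 and 0.99 with a median of 0.98, and 44 of the 49 were over 0.95. The 5 under that were Smc4, Bub3, Cdc25b, Kif18a and Smc2. These correlations describe 44 arrays of 15 groups that share clones and days. The range between a member's lowest and highest group mean had a median of 4.95 log2, against 1.09 over all genes, and it was over 4 log2 for 39 of 49 members and 6.20% of all genes. With Ge2 left out the median range was 2.23, against 0.91 over all genes. All 49 were lowest in a Ge2 group, and among the other clones 47 were lowest in Ctx8 and 2 in Ge6 at day 7. Among genes on none of the mitosis, S phase, regulator, APC/C or cohesin lists, those most like the mean of the members over the 44 arrays were Knstrn (r = 0.994), H2az1, Dnmt1, Usp1, Nsd2, Nasp, Cdkn3, Dnajc9, Kpna2 and Ube2t (r = 0.978).

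In Ge2 at day 3 the mean of 13 members was under the dim level, and 8 were under it on every array, Ccna2, Bub1b, Birc5, Hmmr, Kif23, Kif18a, Cenpe and Mki67. With values under the dim level raised to it the Ge2 median at day 3 was -4.34. Where a gene had further probe sets of its own, 13 of 18 followed the chosen one with r over 0.9.

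The promoters of 5 members, each the one of its role with the highest mean among those with an entry in RefSeq (assembly GRCr8), are shown because genes that are transcribed together late in the cell cycle are known for a pair of elements, the CCAAT box bound by NF-Y and the cell cycle genes homology region (CHR) bound by MuvB complexes. Each line gives the 250 bases before the annotated start, 5′ to 3′ on the gene's strand, and capitals mark CCAAT (or ATTGG on the other strand) and TTTGAA or TTCGAA (or TTCAAA). The windows lie at chr1:195760282-195760531 (plus strand) for Bub3, chr17:13727520-13727769 (minus) for Cks2, chr10:28406327-28406576 (minus) for Pttg1, chr3:127057045-127057294 (plus) for Nusap1 and chr10:84473094-84473343 (minus) for Top2a.
Bub3: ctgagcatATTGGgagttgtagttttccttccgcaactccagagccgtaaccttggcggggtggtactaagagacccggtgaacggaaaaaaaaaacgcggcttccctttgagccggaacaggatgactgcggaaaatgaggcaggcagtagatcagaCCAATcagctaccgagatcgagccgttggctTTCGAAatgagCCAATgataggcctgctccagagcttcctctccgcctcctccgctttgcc
Cks2: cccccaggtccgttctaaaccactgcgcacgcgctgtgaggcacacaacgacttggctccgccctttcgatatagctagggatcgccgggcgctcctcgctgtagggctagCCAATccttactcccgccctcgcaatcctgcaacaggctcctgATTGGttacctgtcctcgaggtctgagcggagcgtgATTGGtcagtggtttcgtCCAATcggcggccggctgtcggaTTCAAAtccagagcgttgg
Pttg1: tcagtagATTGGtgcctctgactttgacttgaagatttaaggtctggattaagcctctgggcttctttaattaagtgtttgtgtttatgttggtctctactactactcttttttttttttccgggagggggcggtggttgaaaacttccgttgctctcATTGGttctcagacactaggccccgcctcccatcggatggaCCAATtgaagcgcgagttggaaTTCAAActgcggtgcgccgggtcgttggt
Nusap1: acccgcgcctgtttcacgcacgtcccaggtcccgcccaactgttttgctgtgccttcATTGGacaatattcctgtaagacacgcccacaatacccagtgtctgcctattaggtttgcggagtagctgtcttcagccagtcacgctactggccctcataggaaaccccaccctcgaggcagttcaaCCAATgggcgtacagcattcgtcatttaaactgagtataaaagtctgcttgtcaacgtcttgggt
Top2a: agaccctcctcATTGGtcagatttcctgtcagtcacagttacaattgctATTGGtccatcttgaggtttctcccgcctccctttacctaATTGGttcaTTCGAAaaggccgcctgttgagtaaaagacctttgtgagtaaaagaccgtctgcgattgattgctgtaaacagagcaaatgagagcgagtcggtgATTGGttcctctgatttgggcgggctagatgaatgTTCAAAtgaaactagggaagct
In these windows Bub3, Cks2, Pttg1 and Top2a held both elements, with the CHR nearest the start 61, 19, 29 and 22 bases before it, and Nusap1 held CCAAT alone. With the 50 bases after the start included, Nusap1 also held a CHR. A further promoter chosen by the same rule, that of Kif20a, is not printed and held 3 CCAAT and no CHR. Within the 250 bases before the start both elements were thus in 4 of 6. Over the 300 bases from 250 before to 50 after the start, CCAAT on either strand was in 33 of 44 member promoters (75.0%) and in 37.7% of all 27457 promoters. TTTGAA or TTCGAA on either strand was in 34 (77.3%), against 19.5% of all, and both were in 28 (63.6%), against 7.83% of all. The E2F motifs TTTCGCGC and TTTGGCGC were in 2 (4.55%), against 0.841% of all. Among 10485 promoters of measured genes the shares were 37.7% for CCAAT, 13.8% for CHR, 5.69% for both and 1.35% for E2F. No entry was used for Ube2c, Incenp, Ccna2, Racgap1 and Aurkb. Bub3, which had the smallest fall in Ge2 at day 3, and Top2a, which by its chosen probe set had one of the largest there, both held CCAAT and CHR. A match is a description of the letters only.

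Other lists around mitosis were read in the same comparisons. Of 41 DNA replication and S phase genes all fell at day 3 in Ge2, Ctx8 and L2.3, with medians of -2.93, -1.84 and -0.88. In L2.2, 37 fell (median -0.70), and in Ge6 at day 3, 16 fell and 2 rose (median -0.18). Of 54 further mitosis genes 51 fell in Ge2 at day 3 (median -2.53) and 2 rose, Numa1, a spindle pole organiser, by 0.52 and Zwint, a kinetochore protein, by 0.24. In Ge6 at day 3, 15 fell and 13 rose (median -0.02), where 28.6% of all genes fell and 20.4% rose, close to the shares of this list. In Ge2, Ctx8, L2.3 and L2.2 at day 3 the share of all genes that fell was 32.4%, 29.7%, 26.2% and 27.7%. The 14 measured regulators of mitotic transcription did not move as one. Foxm1, Mybl2 and E2f8, factors of the dividing cell, fell in all 5 clones at day 3, Mybl2 with log2 differences of -4.25 in Ge2 and -0.66 in Ge6. Rb1, the retinoblastoma protein gene, rose in all 5, by between 0.60 in L2.3 and 2.26 in Ge2, and its relative Rbl2 rose in 4, with L2.2 at 0.19 not past the test. E2f1 rose in Ge6 at day 3 (0.53) and fell in Ge2 (-2.23) and Ctx8 (-0.93). The list of 13 APC/C subunits with the co-activator Fzr1 and the E2 enzyme Ube2s, and the list of 10 cohesin genes, had medians between -0.51 and 0.16 at day 3 in every clone. In Ge2, 10 genes of the APC/C list fell, led by the subunits Anapc1 (-1.35) and Anapc15 (-1.27), with Fzr1 (-1.19) and Ube2s (-1.10) next. In the same list 3 rose, and the share of all genes that rose in Ge2 is not given.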

How the data were processed

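RNA of 44 cultures was hybridised to Affymetrix rat arrays, 1 array each, from 1.2 ug of total RNA primed with oligo-dT, per the labels' protocols. The deposited values were RMA intensities, and GCOS and RMA are named in the submitters' processing notes (no version or setting is stated). The deposited intensity values were linear, from 6.39 to 12734, although the planned test assumed log2 values. They were therefore taken to log2, and no further normalization was applied. Of 24183 probe sets, 17547 were annotated to a single gene, 213 to more than 1 and 6423 to none. Per gene the probe set with the highest mean was kept, which gave 12749 genes.

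One limma fit (version 3.58.1, R 4.3.3) with a mean per clone and day gave 26 comparisons, with Benjamini-Hochberg adjustment over all 12749 genes and a threshold of 0.05. Tests were two-sided. Tables were made with Python 3.11.15, pandas 2.3.3 and scipy 1.17.1. The depth of an array is not a count: the number of arrays limits the precision. The members, the other lists and the tests were chosen with earlier results of these data known. Members named were those with the highest mean of each role, the widest and narrowest ranges, the largest changes and those against the majority; Aurka, Plk1 and further examples were chosen after their values were seen. With 200 of 12749 genes changed in simulated data, the Ge6 day 3 comparison recovered 79.1% of genes changed by 0.5 log2 and 100% of those changed by 1. The changed genes were drawn at random from all genes, whose median residual SD was 0.12 log2. Members with a larger error in that comparison, such as Ccnb1 (SE 0.22) and Ube2c (SE 0.26), need not reach this recovery. Of the simulated calls 5.10% were false. In the data 49.0% of all genes were called in that comparison, far more than the 200 changed in the simulation. The adjusted p cut-off therefore differed, and the simulated recovery need not carry over.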

Additional observations from a re-analysis of the deposited data

Results flagged for a closer look

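The difference between clones in their change after FGF2 withdrawal passed its own limma test for most of these genes. The day 3 change differed among the 5 clones for 49 of the 49 genes, where 68.2% of all genes did. The Ge6 change differed from the mean change of the other 4 clones for 49 genes at day 3, all above (24.1% of all genes). At day 7 it did for 45 (51.9% of all genes), of which 44 were above and Bub3 below. By the median day 7 change, Ge6 was above Ctx8 and Ge2 and below L2.2 and L2.3. The Ge2 change differed from that of the other 4, and was below it, for 49 genes at day 3 (27.7% of all genes) and for 49 at day 7 (27.5%). Sister cultures of 3 were not searched for single outlying arrays by a range test.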

How the results depend on the processing

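Counts of members called were recomputed under 13 alternatives and with each of the 44 arrays left out in turn. Of 26 counts the recomputed values numbered 1469, of which 1434 lay within 1.5 times the reported count and 35 did not. No named gene changed direction, but 156 of 8205 recomputed values for named genes were weaker than reported. Leaving out both arrays that stood apart, leaving out Ge2, and raising dim values to the dim level were chosen after seeing the data. With a 1.2-fold minimum in limma the count was 3 for Ge6 day 3 against day 0, 28 for L2.2 day 3 against day 0, 1 for L2.2 day 7 against day 3 and 2 for Ge2 day 7 against day 3. It was 0 for Ctx8 and 0 for L2.3 between those days, 2 each for Ge6 and Ge2 against the other clones at day 0, and 1 for Ctx8 against L2.3 at day 0. With only the groups compared in the fit it was 25 for Ge6 day 3 against day 0, 1 for Ge2 day 7 against day 3, 29 for Ge6 and 23 for Ge2 against the other clones at day 0, and 5 for Ctx8 against L2.3 at day 0. With no Ge2 array it was 42 for L2.2, 17 for Ctx8 and 7 for L2.3 at day 7 against day 3, and with array weights 16 for Ctx8. Without both arrays that stood apart it was 36 for L2.2 day 7 against day 3. The cause of these shifts was not tested, and the share of all genes that passed is not given for these settings. Leaving out 1 array gave 11 to 32 for L2.2, 11 to 24 for Ge2, 5 to 12 for Ctx8 and 1 to 5 for L2.3 at day 7 against day 3, 12 to 27 for Ge6 against the other clones at day 0, and 1 to 4 for Ctx8 against L2.3 at day 0. Same-numbered cultures did not deviate together (median r = 0.0146 over 43 pairs, 3 of them over 0.1), and with a replicate block 17 genes passed for Ge6 day 3 against day 0. With 3 arrays a group and Ge2 values near the dim level, small differences in Ge2 after withdrawal are limited by signal over background.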
